A study of Mus musculus with 4 samples.

Results

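The genes described here are 9 protein-coding genes of mouse chromosome 11, chosen by symbol: 8 that lie near Stat5a and Stat5b, and Dhx40, which lies farther off on the same chromosome. Kat2a, Rab5c, Ghdc, Cavin1, Atp6v0a1, Naglu, Coasy, Mlx and Dhx40 were all found among the 31053 genes of the deposited matrices. The choice was made with measured values in view, since the ratios of STAT5 knockout to control in KLS cells were already known for them. Those ratios are therefore given as a description, with no test.

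STAT5A and STAT5B are transcription factors that carry signals from cytokine receptors such as those for thrombopoietin and interleukins to the nucleus of blood-forming cells. Their genes sit next to each other, and a floxed allele that spans both is used to remove them together. Such an allele brings with it the stretch of chromosome on which it was made, so a deletion can be accompanied by changes in neighbouring genes, whether through the lost sequence or through linked strain differences. Kat2a, Rab5c and the other neighbours are broadly expressed genes with roles outside cytokine signalling, while Cavin1 encodes a coat protein of caveolae and is abundant in mesenchymal cells.

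Mouse bone marrow was profiled by droplet single-cell RNA sequencing in 4 libraries, 1 for each combination of 2 sorts and 2 genotypes. The KLS sort took stem and progenitor cells that lacked lineage markers and carried c-Kit and Sca-1. They came from mice of 8 to 12 weeks. The stromal sort took CD45-negative, Sca-1-positive, CD140a-positive cells, with little or no Ter119 and CD71, from mice of 6 to 8 weeks. STAT5 KO mice had the genotype Vav1-Cre/+STAT5abfl/fl and controls Vav1-Cre/+STAT5ab+/+, so that both carried the Vav1-Cre transgene, whose Cre is driven by a promoter active in blood cells. The stromal cells of STAT5 KO mice thus carry the floxed alleles without being the target of the Cre. The labels mention 4 mice for the KLS preparation, without saying whether per genotype, and identify neither single mice nor batches. With 1 library a group there was no replicate, so no test between genotypes was possible, and genotype cannot be told apart from the mice, the preparation or a linked chromosome segment.

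After filtering, 3085 control and 6726 STAT5 KO KLS cells were used, with 51139373 and 76389354 unique molecular identifiers (UMIs) and a median of 15136 and 10085 UMIs per cell. The stromal cells numbered 415 and 260, with 1552199 and 1073857 UMIs. Between 200 and 393 barcodes of each library also occurred in another library, and a barcode was left out of the library where it held fewer UMIs. This removed 369 control and 261 STAT5 KO barcodes from the KLS libraries. In those removed barcodes Cavin1 stood at 312 and 301 CPM. CPM is a gene's UMIs per 1000000 UMIs, with both summed over the cells of a group. With these barcodes kept, the KLS log2 ratios were 1.51 for Dhx40, 0.94 for Ghdc and -0.59 for Cavin1, beside 1.52, 0.99 and -0.54 without them. The submitters' text counts 605 CD45-negative cells among 10008 sorted KLS cells. Kit stood at 210 and 178 CPM in KLS cells and at 6.44 and 2.79 CPM in stromal cells. Pdgfra was at 0 in both KLS libraries and at 324 and 264 CPM in stromal cells. Pdgfra was among the genes used to pick the stromal cells, which by their definition held no Ptprc. Ly6a, the gene of Sca-1, which both sorts asked for, stood at 65.2 and 48.8 CPM in KLS and 661 and 454 CPM in stromal cells. Cd34 stood at 520 and 450 CPM in KLS and 416 and 242 CPM in stromal cells.

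The deleted genes were low in the STAT5 KO KLS library. Stat5a had a control level of 68.5 CPM and a STAT5 KO level of 6.74 CPM, and Stat5b stood at 60.8 and 4.49 CPM, log2 ratios of -3.35 and -3.76. Together they were at 8.68% of control in KLS cells (95% counting interval 8.08 to 9.32%). Within cells gated by lineage genes, they were at 2.13% of control in the lymphoid gate, 20.9% in the megakaryocyte gate and 31.7% in the stem gate. In stromal cells they were at 109.6% (85.6 to 139.9%). All intervals given here cover counting error only, and not differences between mice.

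In GRCm38 (GENCODE M21), Stat5b spans chr11:100780731-100850724 on the minus strand and Stat5a chr11:100859351-100885169 on the plus strand. On the low-coordinate side lie Kat2a (chr11:100704746-100712465, minus strand), Rab5c (chr11:100715009-100738215, minus) and Ghdc (chr11:100766032-100770957, minus). They end 68.3, 42.5 and 9.77 kb before Stat5b, and Ghdc thus sits beyond the 3′ end of Stat5b on the same strand. On the other side, past Stat3, lie Cavin1 (chr11:100956733-100970887, minus) at 71.6 kb, Atp6v0a1 (chr11:101009452-101063719, plus) at 124 kb, Naglu (chr11:101070012-101077672, plus) at 185 kb, Coasy (chr11:101082565-101086619, plus) at 197 kb and Mlx (chr11:101087277-101092207, plus) at 202 kb. Mlx overlaps Psmc3ip on the opposite strand, and Stat5a likewise overlaps Stat3. Whether counting used strand is not given in the sources used here. Dhx40 (chr11:86768846-86807746, minus) lies 13.97 Mb before Stat5b.

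The promoters of 3 genes are shown because their KLS ratios lay farthest from 0 among the 9. Each holds the 250 bases before and 50 after a RefSeq transcript start (GRCm38.p6), 5′ to 3′ on the gene's strand. These starts can differ from the GENCODE gene ends given above. Cavin1 had another promoter with nearly the same window (chr11:100970566-100970865), which is not shown. Capitals mark a CACGTG match, the E-box read by MLX with its partner MLXIP among other factors. The intervals are chr11:86807611-86807910 for Dhx40, chr11:100770908-100771207 for Ghdc and chr11:100970568-100970867 for Cavin1, all on the minus strand.
Dhx40: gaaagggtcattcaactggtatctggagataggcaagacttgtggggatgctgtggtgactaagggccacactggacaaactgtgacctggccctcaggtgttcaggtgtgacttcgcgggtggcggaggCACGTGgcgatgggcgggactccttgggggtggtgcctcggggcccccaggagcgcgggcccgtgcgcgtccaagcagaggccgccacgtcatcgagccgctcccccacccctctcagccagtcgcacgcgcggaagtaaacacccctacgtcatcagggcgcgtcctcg
Ghdc: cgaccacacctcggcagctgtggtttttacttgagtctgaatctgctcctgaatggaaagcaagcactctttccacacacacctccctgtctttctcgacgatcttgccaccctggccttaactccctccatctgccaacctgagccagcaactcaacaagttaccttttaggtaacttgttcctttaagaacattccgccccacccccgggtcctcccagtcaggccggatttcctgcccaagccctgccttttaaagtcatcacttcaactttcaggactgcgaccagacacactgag
Cavin1: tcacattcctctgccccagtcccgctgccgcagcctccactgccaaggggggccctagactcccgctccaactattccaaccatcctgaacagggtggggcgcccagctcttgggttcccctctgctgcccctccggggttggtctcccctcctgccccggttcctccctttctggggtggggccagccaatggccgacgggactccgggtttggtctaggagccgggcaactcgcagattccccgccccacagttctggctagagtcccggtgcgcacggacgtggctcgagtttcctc

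Promoters were found in that table for 8 of the 9 genes, all but Coasy. CACGTG, which reads the same on both strands, occurred in 3 of the 8: in Dhx40 at base 131, in Naglu at base 178 and in Mlx at base 211, counted from 1 at the 5′ end. Of all 32851 promoters in the table, 7.15% held it. TTCNNNGAA, the spaced palindrome that STAT5 dimers bind, occurred in 0 of the 8 and in 8.30% of all promoters. These matches describe the letters in the windows and nothing about binding.

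Dhx40, which encodes a DEAH-box RNA helicase, had the largest ratio among the 9 genes. In KLS cells its level was 10.9 CPM in the control library (556 UMIs) and 31.2 CPM in the STAT5 KO library (2382 UMIs). In stromal cells it was 27.7 CPM for control mice (43 UMIs) and 24.2 CPM for STAT5 KO mice (26 UMIs). The control KLS library was thus the low one of the 4, and the other 3 lay between 24.2 and 31.2 CPM. The KLS log2 ratio of STAT5 KO to control was 1.52 (1.39 to 1.66), which is 2.87-fold and rank 27 from the highest of 12074 genes that reached 100 UMIs in the KLS libraries together. In stromal cells the log2 ratio was -0.19 (-0.96 to 0.54), and 0 lay inside its interval.

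Ghdc, the gene beyond the 3′ end of Stat5b, followed. It was at 3.30 CPM in control KLS cells (169 UMIs) and at 6.58 CPM in STAT5 KO KLS cells (503 UMIs), with a log2 ratio of 0.99 (0.74 to 1.25) and rank 74. In stromal cells it was at 27.1 and 29.8 CPM, a log2 ratio of 0.14 (-0.57 to 0.84). Its level was lower in both KLS libraries than in either stromal library.

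Kat2a encodes the GCN5 acetyltransferase of the SAGA and ATAC complexes, which acetylate histone H3. In KLS cells the control level was 40.8 CPM and the STAT5 KO level 52.0 CPM, a log2 ratio of 0.35 (0.27 to 0.43). In stromal cells it stood at 12.9 and 9.31 CPM, on 20 and 10 UMIs, and the log2 ratio was -0.47 (-1.73 to 0.69). Rab5c encodes a small GTPase of early endosomes. It was at 84.7 and 99.3 CPM in KLS cells, a log2 ratio of 0.23 (0.18 to 0.28), and at 81.8 and 57.7 CPM in stromal cells, a log2 ratio of -0.50 (-0.97 to -0.05). These 3 members on the low-coordinate side of Stat5b were above control in the STAT5 KO KLS library, while Dhx58, just beyond Kat2a, was below it with a log2 ratio of -0.55 (-0.67 to -0.42).

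Cavin1 was the member with the largest ratio in the opposite direction. In KLS cells the control level was 17.3 CPM (885 UMIs) and the STAT5 KO level 11.9 CPM (909 UMIs), a log2 ratio of -0.54 (-0.68 to -0.41). In stromal cells it was at 460.6 and 339.0 CPM, a log2 ratio of -0.44 (-0.63 to -0.26). The stromal libraries differed in make-up: among 9 stromal marker genes with a summed level of 45876 and 44753 CPM, cartilage collagen Col2a1 was at 2067 CPM for control and 12332 CPM for STAT5 KO, while Col1a1 was at 7898 and 5715 CPM. In the same stromal cells, 9 erythroid marker genes summed to 2631 CPM for control and 141 CPM for STAT5 KO. The part of these differences in the stromal Cavin1 ratio was not tested.

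The other 4 neighbours on that side were within 1.2-fold of control over all KLS cells. Atp6v0a1, a subunit of the proton-pumping V-ATPase, was at 7.43 and 7.72 CPM, a log2 ratio of 0.06 (-0.13 to 0.25). Naglu, a lysosomal enzyme of heparan sulfate breakdown, was at 12.2 and 10.7 CPM, a log2 ratio of -0.20 (-0.35 to -0.05). Coasy, the enzyme of the last steps of coenzyme A synthesis, was at 27.6 and 25.5 CPM, a log2 ratio of -0.11 (-0.21 to -0.01). Mlx, a transcription factor that pairs with glucose-sensing MLXIP, was at 24.4 and 24.3 CPM, with an interval from -0.11 to 0.10. In stromal cells the intervals of all 4 held 0, on 16 to 50 UMIs a library. Stat3, between Stat5a and Cavin1, was at 90.4 and 91.9 CPM in KLS cells, an interval from -0.03 to 0.08.

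**Figure D1:**
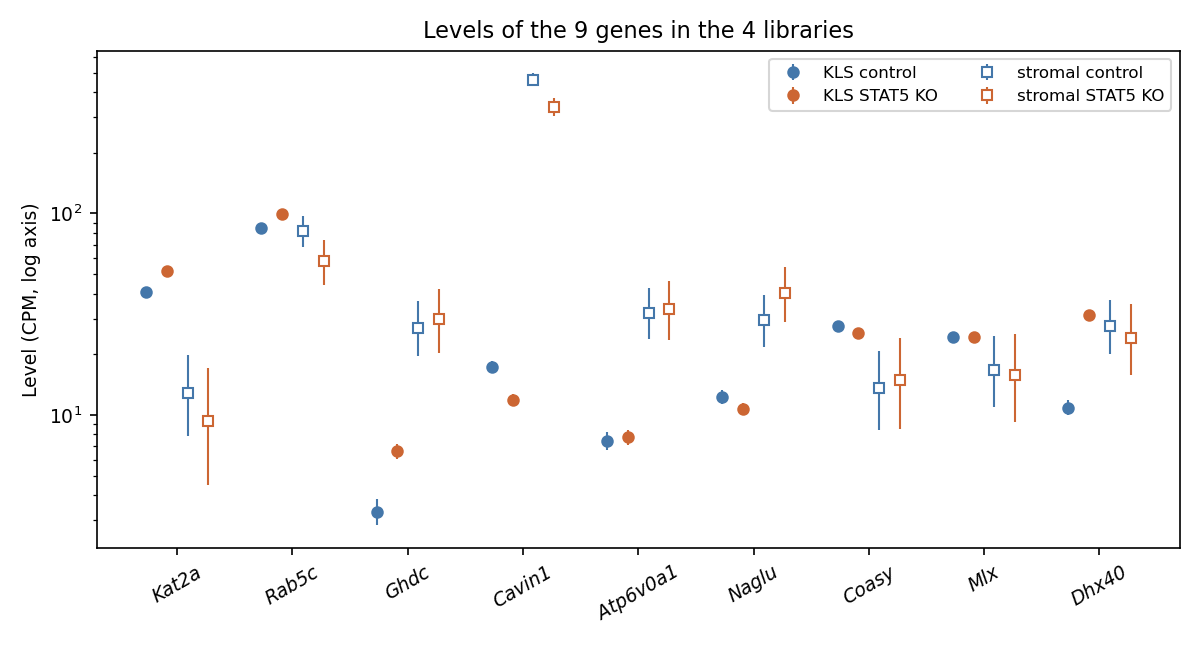
Level of each of the 9 genes in the 4 libraries, in CPM on a log axis, with 95% counting intervals; circles are KLS cells and open squares stromal cells. Dhx40 stands at 10.9 CPM in control KLS cells and at 24.2 to 31.2 CPM in the other 3 libraries, and Cavin1 is at 339.0 CPM or more in both stromal libraries and at most 17.3 CPM in KLS cells.

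Of the 9 genes, 3 were at least 1.2-fold higher in STAT5 KO KLS cells (Kat2a, Ghdc and Dhx40) and 1 at least 1.2-fold lower (Cavin1). Among all 12074 genes, 29.0% were past that fold, 11.7% higher and 17.3% lower. At 1.5-fold, 2 of the 9 were higher (Ghdc and Dhx40) and 0 lower, where 7.21% of all genes were past the fold, 2.05% higher and 5.15% lower. The counting interval of the ratio left out 0 for 7 of the 9 genes and for 61.2% of all genes. These counts come from the contrast on which the genes were chosen, so nothing is read from them. The median log2 ratio of the 9 was 0.06, and that of all genes -0.01. In stromal cells only Rab5c and Cavin1 reached 100 UMIs. Both were past 1.2-fold and lower, where 46.5% of 4173 genes were past that fold, 14.4% higher and 32.2% lower. Neither was past 1.5-fold, where 13.5% of genes were, 5.03% higher and 8.44% lower. Both intervals left out 0, as did those of 30.8% of genes. TMM scaling moves stromal log2 ratios up by 0.12, which is more than the distance of the Rab5c bound of -0.05 from 0. The median of all stromal genes was -0.11.

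**Figure D2:**
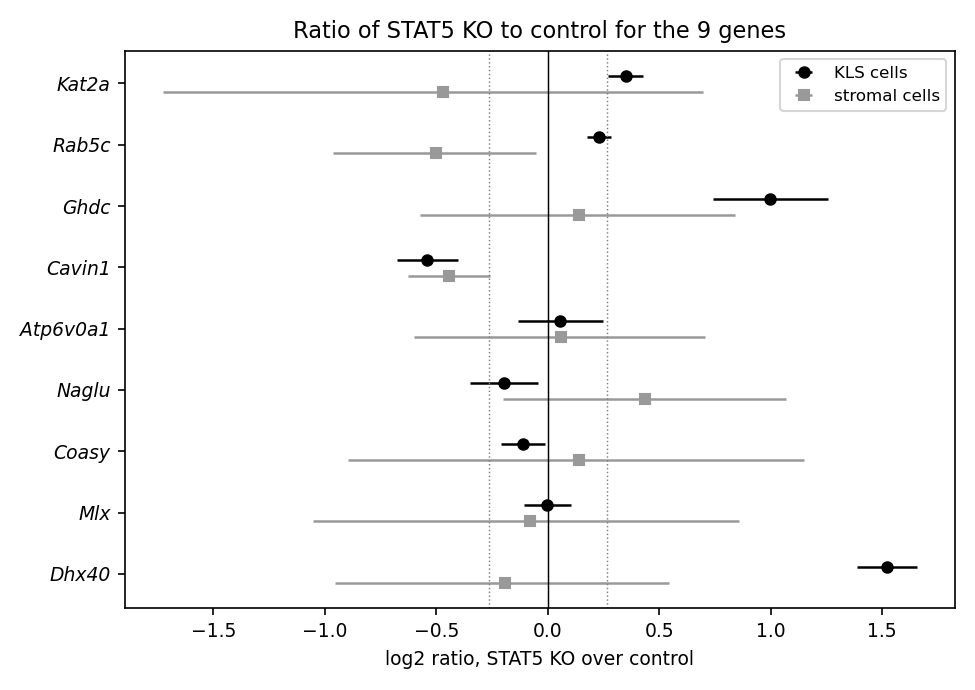
Ratio of STAT5 KO to control for each gene on a log2 scale, with 95% counting intervals; black circles are KLS cells, grey squares stromal cells, and dotted lines mark 1.2-fold. Dhx40 at 1.52 and Ghdc at 0.99 lie farthest right in KLS cells, where Cavin1 lies at -0.54; most stromal intervals cross 0.

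The levels of the 9 genes also differed between the sorts within the control mice. Control stromal cells held 26.6-fold more Cavin1, on the CPM scale, than control KLS cells, 8.19-fold more Ghdc, 4.34-fold more Atp6v0a1, 2.55-fold more Dhx40 and 2.42-fold more Naglu. Kat2a was 3.17-fold and Coasy 2.04-fold lower there. For Rab5c (-0.32 to 0.20) and Mlx (-1.16 to 0.02) the interval of the log2 ratio held 0. Dhx40 was the one gene whose difference between sorts had the opposite sign in STAT5 KO mice, with a log2 ratio of stromal to KLS of 1.35 in control and -0.37 (-0.98 to 0.19) in STAT5 KO. The sorts were prepared in different ways from mice of different age, so sort and preparation cannot be told apart.

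Within the KLS libraries, cells were gated by UMIs of a few lineage genes: stem (Hlf, Mecom and Procr), lymphoid (Dntt), megakaryocyte (Pf4), erythroid (Klf1 and Gata1), myeloid (Elane and Prtn3), and ungated cells with none of these gates and no stem gene. The gates held between 26 and 1179 control cells and between 92 and 3149 STAT5 KO cells. In control, Dhx40 was lowest in the lymphoid gate (8.62 CPM), the stem gate (10.1 CPM) and the megakaryocyte gate (11.4 CPM), and highest in the myeloid gate (25.4 CPM) and the erythroid gate (29.99 CPM). In STAT5 KO it lay between 25.1 CPM in the erythroid and 38.0 CPM in the stem gate. The control gates thus ranged more widely than the STAT5 KO gates.

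The Dhx40 log2 ratio was 1.91 (1.34 to 2.51) in the stem gate, 1.88 (1.64 to 2.12) in the lymphoid gate and 1.37 (0.86 to 1.89) in the megakaryocyte gate. In the myeloid gate it was 0.02 (-0.57 to 0.64) and in the erythroid gate -0.26 (-1.04 to 0.57). Those gates rest on 36 and 20 control UMIs of Dhx40. With cells of several gates kept in each gate, the erythroid and myeloid log2 ratios were 0.24 (-0.31 to 0.80) and 0.36 (-0.10 to 0.85). In ungated cells the ratio was 0.85 (-0.02 to 1.85), and 0.90 (0.24 to 1.63) with 2 UMIs per gate gene. The intervals of the stem and lymphoid gates do not overlap those of the erythroid and myeloid gates, but with 2 UMIs per gate gene the stem interval (0.40 to 2.42) overlapped the erythroid one, which ended at 0.67. With 1 library a group the difference between gates was not tested. Among cells with 1 or 2 of the stem genes and no gate, the log2 ratio was 1.55 (1.28 to 1.84).

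Ghdc was above control in 6 of 6 gates, and its interval lay above 0 in 4. It went from 3.94 to 10.9 CPM in the stem gate (log2 ratio 1.47, 0.48 to 2.52), from 2.98 to 4.55 CPM in the lymphoid gate (0.61, 0.17 to 1.07) and from 2.78 to 9.86 CPM in the megakaryocyte gate (1.83, 0.84 to 2.93). In the erythroid gate there were 2 control UMIs and 24 STAT5 KO UMIs, so the log2 ratio of 2.06 ran from 0.05 to 5.19, and with 2 UMIs per gate gene its interval (-0.02 to 3.57) held 0. The 6 control gates lay between 2.57 and 3.94 CPM, and the 6 STAT5 KO gates between 4.08 and 12.5 CPM.

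Kat2a was above control in 5 of 6 gates, with log2 ratios of 0.36 in the stem gate and 0.35 in the lymphoid gate, and its interval left out 0 in the lymphoid gate (0.22 to 0.47). In the megakaryocyte gate its log2 ratio was -0.09 (-0.38 to 0.19), which became 0.41 (0.04 to 0.78) when 2 UMIs of Pf4 were asked for and 0.26 (0.05 to 0.46) with cells of several gates kept. Rab5c was above control in 6 of 6 gates, by 0.04 in the erythroid to 0.40 in the megakaryocyte gate, and in 5 of 6 with 2 UMIs per gate gene.

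Cavin1 differed more between gates than between genotypes. In control it was at 37.2 CPM in the megakaryocyte gate, 33.7 CPM in the stem gate and 4.26 CPM in the lymphoid gate, and in STAT5 KO at 38.8, 30.9 and 3.59 CPM. All 6 gate intervals of the genotype ratio held 0, with log2 ratios from -0.30 to 0.06. In the lymphoid gate this rested on the gating: the log2 ratio was -0.25 (-0.65 to 0.17), but -0.73 (-1.20 to -0.27) with 2 UMIs of Dntt and -0.70 (-0.99 to -0.42) with cells of several gates kept. With 2 UMIs per gate gene, Cavin1 was above control in 3 of 6 gates instead of 1. Stem-gate cells made up 8.40% of the control library and 3.36% of the STAT5 KO library, and lymphoid-gate cells 38.2 and 46.8%. With STAT5 KO cells weighted to the gate shares of control, the log2 ratio over all KLS cells was -0.29, against -0.54 unweighted. Cells outside the 6 gates had intervals below 0. The Cavin1 log2 ratio was -0.36 (-0.58 to -0.14) in cells with 1 or 2 stem genes and no gate. In cells of several gates it was -0.66 (-1.02 to -0.29).

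For the other members, Naglu was below control in 6 of 6 gates, with log2 ratios from -0.50 to -0.06 and each interval holding 0. With 2 UMIs per gate gene it was above control in 3 gates, and its lymphoid interval ran from -0.58 to -0.05. Coasy was above control in 1, Mlx in 2 and Atp6v0a1 in 4 of 6 gates, with intervals that held 0. Other gatings changed this for Atp6v0a1 and Coasy. With 2 UMIs per gate gene, Atp6v0a1 was at -0.43 (-0.78 to -0.09) in the lymphoid gate, and in the myeloid gate its log2 ratio went from -0.68 to 1.46. With cells of several gates kept, it was at 0.73 (0.03 to 1.45) in the erythroid gate, and Coasy at -0.47 (-0.77 to -0.17) in the megakaryocyte gate. The gate values of these 4 genes thus depend on how the gates are drawn.

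**Figure D3:**
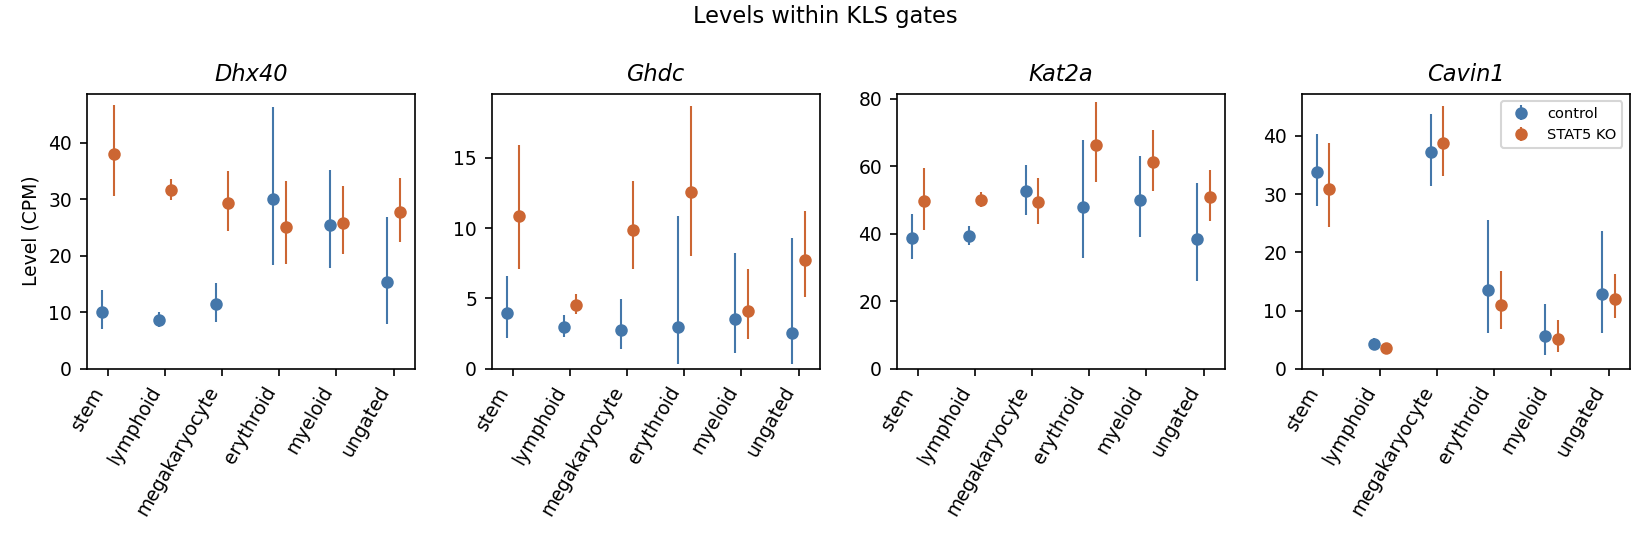
Levels of Dhx40, Ghdc, Kat2a and Cavin1 in CPM within 6 gates of KLS cells, control in blue and STAT5 KO in orange, with 95% counting intervals. Dhx40 is at 8.62 to 11.4 CPM in the control lymphoid, stem and megakaryocyte gates and at 29.4 CPM or more in the same STAT5 KO gates; Cavin1 follows the gate in both genotypes.

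A Stat5a or Stat5b UMI was found in 454 of 6726 STAT5 KO KLS cells, 6.75% (exact binomial 95% interval 6.16 to 7.38%), and in 79.3% of control cells. The share in STAT5 KO ran from 1.91% of lymphoid-gate cells (median 10824 UMIs) to 29.2% of stem-gate cells (median 8864.5 UMIs). These cells come from the same library as the STAT5 KO cells with no such UMI. Since mice are not identified, the 2 kinds of cells may come from the mice in unlike shares. Median depth was 10195 UMIs with and 10075.5 UMIs without. No correction was made for free RNA in the droplets, and its part in the low lymphoid share was not tested.

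Dhx40 stood at 31.0 CPM in STAT5 KO cells with a Stat5 UMI and 31.2 CPM in those without, a log2 ratio of -0.01 (-0.24 to 0.21). Against all control cells, the cells with a Stat5 UMI had a log2 ratio of 1.51 (1.26 to 1.76). Asking for 2 Stat5 UMIs left 229 cells with Dhx40 at 31.4 CPM. Ghdc was at 6.83 and 6.56 CPM, Kat2a at 52.7 and 51.9 CPM and Rab5c at 98.3 and 99.4 CPM with and without a Stat5 UMI. For these 4 genes the interval of the ratio held 0, so a difference was not detectable at this depth.

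Cavin1 differed between these cells. It stood at 43.4 CPM in STAT5 KO cells with a Stat5 UMI (248 UMIs) and at 9.35 CPM in those without (661 UMIs), a log2 ratio of 2.22 (2.0 to 2.43). In control cells the same split gave 17.0 and 19.0 CPM, an interval from -0.42 to 0.12. Within the stem gate of STAT5 KO the levels were 69.5 and 17.5 CPM, within the megakaryocyte gate 70.9 and 32.2 CPM and within the lymphoid gate 19.7 and 3.25 CPM. Against control, Cavin1 was thus higher in the STAT5 KO cells with a Stat5 UMI (log2 ratio 1.33, 1.12 to 1.53) and lower in those without (-0.89, -1.04 to -0.74).

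The cells with a Stat5 UMI differed in more than Stat5. The stem gate held 14.5% of them and 2.55% of the cells without, the megakaryocyte gate 13.0 and 5.39%, and the lymphoid gate 13.2 and 49.3%. Other cavin genes were higher with than without, Cavin2 at 79.7 and 9.69 CPM and Cavin3 at 30.1 and 6.89 CPM. The stromal list summed to 8.93 CPM with and 1.43 CPM without, with Pdgfra at 0 in both, and the endothelial list (Cdh5, Pecam1, Emcn and Kdr) to 61.0 and 70.3 CPM. Ptprc was at 137 and 155 CPM. The part of these differences in the Cavin1 ratio beyond the gates was not tested. Mlx was lower in cells with a Stat5 UMI, by a log2 ratio of -0.36 (-0.65 to -0.08).

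**Figure D4:**
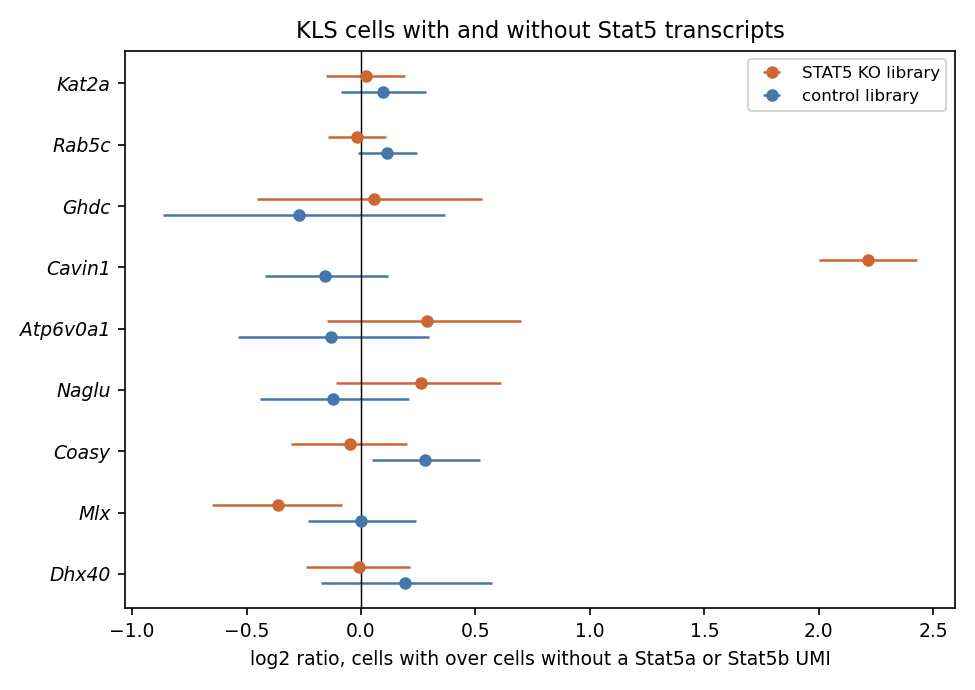
Ratio of KLS cells with to KLS cells without a Stat5a or Stat5b UMI for each gene, on a log2 scale, with 95% counting intervals; orange is the STAT5 KO and blue the control library. Cavin1 at 2.22 in the STAT5 KO library stands apart from the other 8 genes, and Dhx40 lies at -0.01.

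The KLS libraries held cells of both sexes, so the ratios were also taken within cells with Xist UMIs only (1091 control, 2367 STAT5 KO) and cells with Y-linked UMIs only (1497 and 2964). Dhx40 went from 14.1 to 32.0 CPM in the first (log2 ratio 1.18, 0.98 to 1.38) and from 8.36 to 30.7 CPM in the second (1.88, 1.65 to 2.11). The control levels differed between the sexes and the STAT5 KO levels lay close together. Ghdc had log2 ratios of 1.29 and 0.71, Kat2a of 0.33 and 0.40, and Cavin1 of -0.30 and -0.65. Each kept its sign in both. Atp6v0a1 did not, with log2 ratios of 0.27 (-0.05 to 0.59) and -0.07 (-0.36 to 0.21). The remaining Stat5 levels also differed between these STAT5 KO cells. Stat5a was at 2.66 CPM with Xist UMIs only and 9.55 CPM with Y-linked UMIs only, and Stat5b at 2.36 and 5.79 CPM. Since the mice are not identified, sex and mouse cannot be told apart.

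Of the genes annotated within 500 kb of Stat5a or Stat5b, 31 reached 100 UMIs in KLS cells, and 13 of them (41.9%) were past 1.2-fold, 7 higher and 6 lower, beside 29.0% of all genes, 11.7% higher and 17.3% lower. Their median log2 ratio was -0.00. Without the 8 members, 10 of 23 were past it, 5 in each direction. Past 1.5-fold were Ghdc and Klhl11 (0.62, 0.28 to 0.97), higher, and Jup, which encodes plakoglobin (-0.68, -0.88 to -0.48), lower. Plekhh3, named after its values were seen, had 6 and 67 UMIs, under the minimum of 100.

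Within 500 kb of Dhx40, 17 genes reached 100 UMIs and 8 (47.1%) were past 1.2-fold, 7 of them higher, beside 29.0% of all genes past it and 11.7% higher. Past 1.5-fold were Dhx40, Gdpd1 (1.23, on 66 and 232 UMIs) and Gm11491 (0.99, on 27 and 80 UMIs), higher, and Tubd1, lower. Tubd1 encodes delta-tubulin of the centriole and lies 201 kb from Dhx40. It went from 9.01 to 2.45 CPM, a log2 ratio of -1.88 (-2.13 to -1.63), so 2 genes of this window had ratios of opposite sign and similar size. In STAT5 KO cells with a Stat5 UMI, Tubd1 stood at 3.50 CPM and Gdpd1 at 4.20 CPM, against 2.36 and 2.94 CPM without. Both were nearer to the STAT5 KO than to the control level. Cltc, the clathrin heavy chain gene 11.3 kb from Dhx40, went from 91.8 to 121 CPM, a log2 ratio of 0.40.

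Along chromosome 11 as a whole, 9.67% of 1003 genes were past 1.5-fold in KLS cells, against 6.95% of 11058 genes on other chromosomes. The other chromosomes ranged singly from 5.25 to 9.21%, with the X chromosome highest. By distance from Stat5a the share was 9.30% within 1 Mb, 11.5% from 1 to 5 Mb, 10.0% from 5 to 10 Mb, 13.8% from 10 to 20 Mb, 8.49% from 20 to 40 Mb and 6.95% beyond. The bin that holds Dhx40, which covers both sides of Stat5a, had the highest share at this fold, and its median log2 ratio was 0.04. At 1.2-fold that bin had 33.3%, below the 35.6 to 42.9% of the nearer bins. In stromal cells 11.5% of chromosome 11 genes and 13.7% of other genes were past 1.5-fold.

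**Figure D5:**
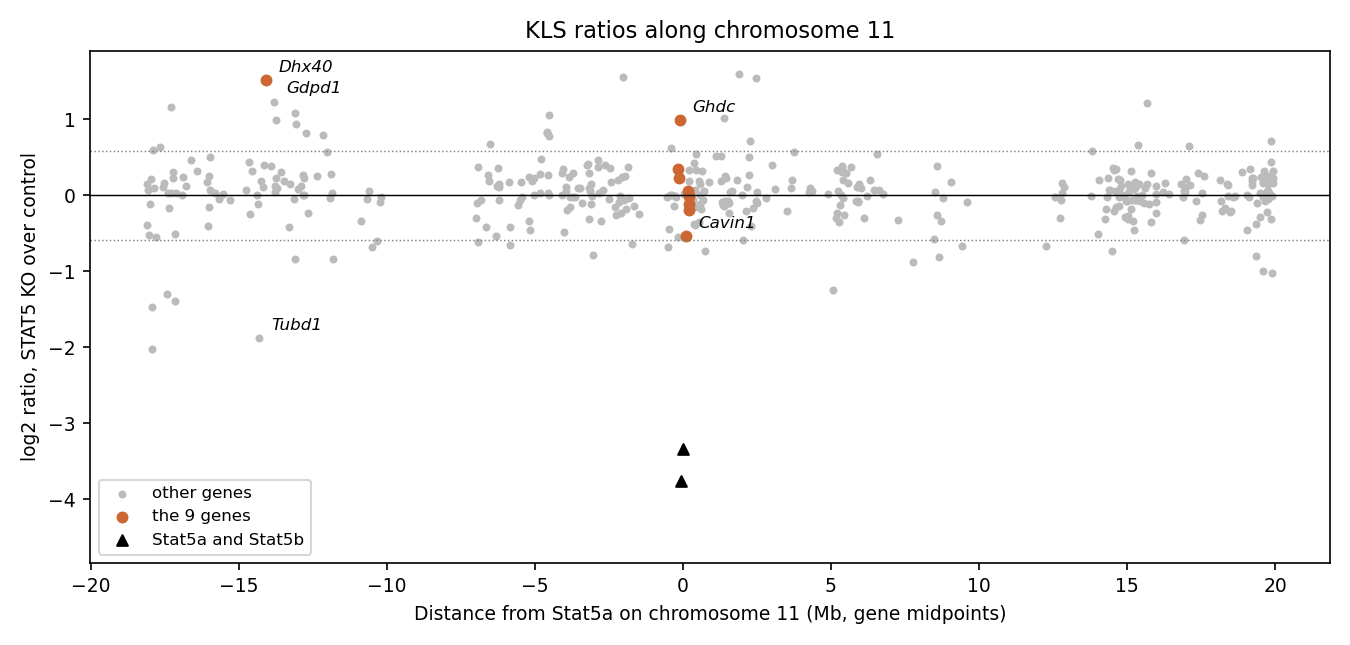
Log2 ratio of STAT5 KO to control in KLS cells against distance from Stat5a on chromosome 11 in Mb, within 20 Mb, for genes with at least 100 UMIs; dotted lines mark 1.5-fold. Dhx40 at 1.52, Gdpd1 at 1.23 and Tubd1 at -1.88 lie together on the left, and the 8 members near Stat5 lie between -0.54 and 0.99.

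Genes that work with the members were read from lists by role. The counts stand beside 11.7% of all 12074 genes at least 1.2-fold higher in STAT5 KO KLS cells and 17.3% lower. Among 15 other DEAH or DExH helicases, 3 were at least 1.2-fold higher and 2 lower in STAT5 KO KLS cells, with a median log2 ratio of 0.12, from Dhx29 at 0.45 to Dhx58 at -0.55. Dhx58, an RNA sensor, is itself 76.5 kb from the Stat5 genes. Of 27 SAGA and ATAC subunits, the partners of KAT2A, 0 were higher and 2 lower. They ran from Atxn7l3 at 0.26 to Taf9 at -0.35, and the paralog Kat2b was at -0.02 (-0.13 to 0.09). Taf9 had 93 and 109 UMIs, and its interval (-0.76 to 0.07) held 0. Of 4 caveolar genes with enough UMIs, Cavin2 was higher at 0.68 (9.31 CPM in control) and Cav2 lower at -1.19, with Cavin3 also lower at -0.86. Without the 454 STAT5 KO cells that held a Stat5 UMI, the Cavin2 log2 ratio was 0.06 (-0.11 to 0.23), so its call rested on those cells. Cav1, the main caveolin, had 0 and 1 UMIs in KLS cells.

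The next counts use the same fold, past which 11.7% of all genes were higher and 17.3% lower. For Rab5 partners, 1 of 10 was higher and 3 were lower, from Rabep1 at 0.37 to Rab4a at -0.38. For the V-ATPase, 2 of 16 were higher and 0 lower, from Atp6v0c at 0.32 to Atp6ap1 at -0.25, with a median of -0.08. Atp6v0c had 65 and 121 UMIs, and its interval (-0.13 to 0.78) held 0. For the MLX network 1 of 11 was lower (Mxi1 at -0.28) and 0 higher, with Mlxip at 0.24. For coenzyme A synthesis 0 of 6 were past the fold, and for heparan sulfate breakdown 1 of 7 was lower (Arsg at -0.81, on 54 and 46 UMIs). The median was -0.35 for the caveolar genes and lay between -0.08 and 0.12 for the other 7 lists, beside -0.01 over all genes.

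Over the 12 combinations of gate and KLS library, the profiles most like that of Dhx40 among 10153 genes were those of Larp4, an mRNA-binding protein gene (Pearson r of 0.86), Eif1a, a translation initiation factor gene (0.84), and Mpp6 (0.82). The points share 2 libraries, so the correlations are descriptions. The KLS log2 ratios of these 3 genes were 0.25, 0.35 and 0.31, beside 1.52 for Dhx40.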

How the data were processed

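The deposited matrices hold raw UMI counts per gene and cell barcode, with no normalization by the authors. Per the submitters' processing notes they were made with Cell Ranger on GRCm38 (mm10), and the headers of the matrices give software version 3.1.0. The annotation and the strand rule are not given in the sources used here. Of 31053 gene identifiers, 30934 were found in GENCODE M21. A cell needed 200 genes or more, and no more than 10% of its UMIs from mitochondrial genes. The highest Scrublet scores (scanpy 1.11.5) were left out at 0.8% per 1000 barcodes, since Scrublet's automatic threshold marked 0 or 1 barcodes a library. Barcodes with more UMIs in another library were left out. Stromal cells of the MSC libraries had no Ptprc UMI, at least 3 UMIs over 9 stromal genes, and more of these than of 5 erythroid genes. A gate asked for 1 UMI of each of its genes, and cells of several gates were left out of the gates. No correction for free RNA was made.

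Counts were summed per library and scaled to CPM. Ratios are plain log2 ratios with exact conditional binomial 95% intervals, and sums carry exact Poisson intervals. Both cover counting error only, and not the spread between mice. A call meant 1.2-fold or 1.5-fold among genes with at least 100 UMIs. On simulated KLS counts the script gave the right direction for 100% of changed genes, and its intervals held the true ratio for 93.2% of those checked. The profiles compared with that of Dhx40 used log2 of CPM plus 10 and genes with at least 500 UMIs. Scaling by edgeR 4.0.16 (TMM) and DESeq2 1.42.0 (size factors) was among the alternatives. Genes were named by rule: the 9 genes, Stat5a, Stat5b and Stat3, window genes past 1.5-fold, the extremes of each list and the 3 profiles most like Dhx40. The genes and lists were chosen with earlier results of these data known. Other genes named (Plekhh3, Cltc, Kat2b, Cavin3 and Cav1) were chosen after their values were seen or to describe a list.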

Additional observations from a re-analysis of the deposited data

Results flagged for a closer look

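For 5 of the 9 genes the log2 ratio of STAT5 KO to control had opposite signs in the KLS and stromal libraries. The difference between the sorts was not tested, since each group has 1 library. For Rab5c it was 0.23 in KLS cells and -0.50 in stromal cells, and both counting intervals left out 0, the stromal one narrowly (-0.97 to -0.05). A TMM shift of 0.12 carries that bound past 0. For Dhx40 it was 1.52 and -0.19, for Kat2a 0.35 and -0.47, for Naglu -0.20 and 0.43, and for Coasy -0.11 and 0.14. In these last 4 genes the stromal interval held 0. The upper bound of the stromal Dhx40 interval, 0.54, lies under the lower bound of the KLS interval, 1.39. The median of all stromal genes was -0.11.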

How the results depend on the processing

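Under 12 other settings the KLS log2 ratio of Dhx40 stayed above 0, from 0.98 to 1.88. It was 0.98 with a pseudocount of 10 CPM, 1.18 in cells with Xist UMIs only and 1.88 in cells with Y-linked UMIs only. The cell splits by Xist, Y-linked and Stat5 UMIs were chosen after seeing the data. Cavin1 ranged from -0.89 without the STAT5 KO cells that held a Stat5 UMI to -0.29 with gate shares weighted. Ghdc ranged from 0.32 with a pseudocount of 10 CPM to 1.29, Kat2a from 0.29 to 0.40 and Rab5c from 0.21 to 0.27. Mlx and Atp6v0a1 changed sign between settings, Atp6v0a1 from -0.07 in cells with Y-linked UMIs only to 0.27 in cells with Xist UMIs only. In stromal cells Dhx40 was 0.38 as a mean of single-cell CPM and below 0 in the other 8 of 9 settings, and TMM scaling moved all stromal log2 ratios up by 0.12.

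Among all genes in KLS cells, 29.0% were past 1.2-fold and 7.21% past 1.5-fold. At 1.5-fold the count of members called fell from 4 to 2. The Stat5 window count of 13 became 22 with a minimum of 1 UMI in each library. The share of all genes at that minimum is not given here. The Stat5 window count was 3 of 31 at 1.5-fold (9.68%) and 5 of 17 within 250 kb (29.4%). The Dhx40 window count of 8 became 4 of 17 at 1.5-fold (23.5%). It was 5 of 8 within 250 kb (62.5%) and 13 of 27 within 1 Mb (48.1%). The cause of these moves beyond the number of genes tested was not tested. No paired analysis was possible because each group has 1 library. Depth limits the stromal values: 7 of the 9 genes had fewer than 100 UMIs there, and the erythroid and myeloid gates held 26 and 64 control cells.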

Other observations

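In the MSC libraries, the kept cells that were not stromal by the rule above held Atp6v0a1 at 214 CPM in control (43 UMIs) and 255 CPM in STAT5 KO (32 UMIs), against 32.2 and 33.5 CPM in stromal cells. Dhx40 had 8 UMIs in those control cells and 0 in the STAT5 KO cells, which allows a level of up to 23.9 CPM there (3 counts of the total). Cavin1 had 12 and 3 UMIs.

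Between STAT5 KO KLS cells with and without a Stat5 UMI, the log2 ratio of Cavin1 was 1.99 (1.29 to 2.71) in the stem gate, 2.60 (1.72 to 3.38) in the lymphoid gate and 1.14 (0.63 to 1.63) in the megakaryocyte gate. In the erythroid gate it had 0 UMIs in 11 cells with and 21 UMIs in 81 cells without.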
